A study of Mus musculus with 8 samples.

Results

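The genes described here are the axon guidance ligands and receptors: the semaphorins of classes 3 to 7, their plexin receptors, the ephrins and Eph receptors, the Slit ligands and Robo receptors, and the netrins. They were taken by symbol from the protein-coding genes of a RefSeq gene table, and 59 of the 20665 autosomal genes matched. There were 20 semaphorins, 7 plexins, 7 ephrins, 14 Eph receptors, 3 Slit genes, 4 Robo genes and 4 netrins, which makes 34 ligands and 25 receptors. The X-linked Efnb1, Plxna3 and Plxnb3 were left out. The study used chromatin immunoprecipitation sequencing on mesenchymal stem/progenitor cells grown from mouse bone marrow, to map ASXL1 in wild-type cells and to set histone marks in Asxl1-/- cells beside those in wild-type (WT) cells. The groups were H3K4me2, H3K4me3 and H3K27me3 in Asxl1-/- cells, the same 3 marks in WT cells, and ASXL1 in WT cells, with 1 library each. All cells had the C57BL/6 background, were kept in MesenCult medium and were at passages 5 to 10. The labels do not say how Asxl1 was deleted, from how many animals the cells came, or whether cells were pooled. An input library of the study was not analysed here.

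Axon guidance cues were first known as secreted or surface-bound proteins that attract or repel growing axons, and most of them also act outside the nervous system. Semaphorins signal through plexins, the secreted class 3 members mostly with neuropilins as co-receptors. Ephrins are membrane-bound ligands of the Eph receptor tyrosine kinases, and signals can pass into both of the touching cells. Slit proteins bind Robo receptors, and netrins bind DCC and UNC5 receptors. In mouse bone, ephrin-B2 and EphB4 pass signals between osteoclasts and osteoblasts, Sema3a from osteoblast-lineage cells restrains osteoclasts, and Sema4d from osteoclasts restrains osteoblasts through plexin-B1. H3K4me3 lies at active or poised promoters and H3K4me2 at promoters and enhancers, while H3K27me3 is placed by Polycomb repressive complex 2 on silent genes. A promoter with H3K4me3 and H3K27me3 together is often called bivalent. ASXL1 is a Polycomb-associated protein that also forms a deubiquitinase complex with BAP1.

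The deposited lists hold islands, which are stretches of the genome that SICER called enriched, on a 200 bp grid and without read counts. On the autosomes, H3K4me2 had 32800 islands in Asxl1-/- cells and 35291 in WT cells, and H3K4me3 had 14792 in Asxl1-/- cells and 17395 in WT cells. H3K27me3 had 18447 in Asxl1-/- cells and 17507 in WT cells, and ASXL1 had 17065 in WT cells. The depth of the libraries is unknown, and with 1 library per group no difference has a replicate check and no test between genotypes could be made. The length covered in Asxl1-/- over WT cells also differed between whole chromosomes, between 0.222 on chromosome 3 and 2.09 on chromosome 10 for H3K27me3, and this ratio is given beside many of the genes that differed. Whether these chromosome-wide differences set the result at a single gene was not tested. H3K4me3 lay at 13 of 14 stromal marker genes in Asxl1-/- cells and at 13 in WT cells, with Lepr as the exception. Of the markers of other cells, H3K4me3 lay at 4 of 10 haematopoietic, 1 of 8 endothelial, 5 of 9 neuronal and 2 of 7 glial genes in Asxl1-/- cells, and at 3, 2, 5 and 2 of these genes in WT cells. Ptprc, Itgam, Cd3e, Pecam1 and Cdh5, which define blood and endothelial cells, had no H3K4me3 island in Asxl1-/- cells or in WT cells. The part of other cells in the results below was not tested. At Asxl1 itself, H3K4me3 islands were 6.2 kb wide in Asxl1-/- cells and 7.2 kb wide in WT cells, and an H3K27me3 island of 23.2 kb lay at the other end in Asxl1-/- cells, against none in WT cells. Neither checks the genotype.

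Promoter sequences are shown for 7 genes on which the results below turn: 3 that had H3K4me3 in Asxl1-/- cells only, 1 that had H3K27me3 in Asxl1-/- cells only, and 3 that had H3K27me3 in WT cells only. Each runs 5′ to 3′ on the gene's own strand from 250 bases before to 50 bases after the RefSeq start, from RefSeq's GRCm38.p6, whose coordinates are those of mm10. Capitals mark CG dinucleotides. Epha5 lies at chr5:84417333-84417632 on the minus strand, Ephb1 at chr9:102354644-102354943 (minus), Sema3d at chr5:12382916-12383215 (plus), Slit3 at chr11:35121206-35121505 (plus), Epha3 at chr16:63864126-63864425 (minus), Epha4 at chr1:77515039-77515338 (minus) and an internal start of Robo2 at chr16:74411776-74412075 (minus).
Epha5: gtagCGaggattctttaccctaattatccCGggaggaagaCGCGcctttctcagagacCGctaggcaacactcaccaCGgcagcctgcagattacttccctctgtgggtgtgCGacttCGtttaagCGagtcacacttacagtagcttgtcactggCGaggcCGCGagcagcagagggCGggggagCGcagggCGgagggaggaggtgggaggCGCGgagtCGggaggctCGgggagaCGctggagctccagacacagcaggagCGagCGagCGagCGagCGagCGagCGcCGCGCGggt
Ephb1: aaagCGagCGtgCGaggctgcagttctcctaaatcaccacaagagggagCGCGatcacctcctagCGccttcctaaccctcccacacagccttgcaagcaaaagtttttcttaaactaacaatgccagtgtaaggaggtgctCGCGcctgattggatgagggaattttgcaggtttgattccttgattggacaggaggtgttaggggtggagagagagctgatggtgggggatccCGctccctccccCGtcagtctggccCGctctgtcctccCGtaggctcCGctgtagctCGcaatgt
Sema3d: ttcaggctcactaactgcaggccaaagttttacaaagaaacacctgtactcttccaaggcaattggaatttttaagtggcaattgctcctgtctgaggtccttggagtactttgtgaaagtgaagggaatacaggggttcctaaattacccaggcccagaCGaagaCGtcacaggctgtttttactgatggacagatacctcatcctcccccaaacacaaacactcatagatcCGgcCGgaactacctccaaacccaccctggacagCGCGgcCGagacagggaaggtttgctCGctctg
Slit3: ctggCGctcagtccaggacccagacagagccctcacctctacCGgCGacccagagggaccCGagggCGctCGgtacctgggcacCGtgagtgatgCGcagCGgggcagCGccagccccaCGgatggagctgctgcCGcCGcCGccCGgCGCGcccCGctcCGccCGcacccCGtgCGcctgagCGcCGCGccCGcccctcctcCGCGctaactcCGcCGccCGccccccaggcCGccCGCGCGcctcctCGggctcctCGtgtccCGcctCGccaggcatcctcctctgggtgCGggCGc
Epha3: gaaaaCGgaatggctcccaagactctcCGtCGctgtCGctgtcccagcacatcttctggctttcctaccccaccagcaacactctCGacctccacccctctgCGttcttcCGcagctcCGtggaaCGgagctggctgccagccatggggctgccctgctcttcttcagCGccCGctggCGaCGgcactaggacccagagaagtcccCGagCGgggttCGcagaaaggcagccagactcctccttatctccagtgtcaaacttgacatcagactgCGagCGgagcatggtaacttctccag
Epha4: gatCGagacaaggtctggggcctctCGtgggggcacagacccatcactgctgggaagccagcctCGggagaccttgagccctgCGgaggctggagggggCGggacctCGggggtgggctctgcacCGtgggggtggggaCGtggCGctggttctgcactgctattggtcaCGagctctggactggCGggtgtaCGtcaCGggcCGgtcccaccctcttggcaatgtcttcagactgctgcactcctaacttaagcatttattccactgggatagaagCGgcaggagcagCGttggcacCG
Robo2: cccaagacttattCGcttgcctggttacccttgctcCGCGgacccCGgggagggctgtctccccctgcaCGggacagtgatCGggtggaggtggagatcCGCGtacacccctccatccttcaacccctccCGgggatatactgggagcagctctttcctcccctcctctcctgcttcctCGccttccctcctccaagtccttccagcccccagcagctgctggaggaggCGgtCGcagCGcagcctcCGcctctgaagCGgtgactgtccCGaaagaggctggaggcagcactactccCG
The number of CG dinucleotides was 30 at Epha5, 14 at Ephb1, 8 at Sema3d, 41 at Slit3, 18 at Epha3, 17 at Epha4 and 17 at Robo2, against a median of 14 over 20085 autosomal promoters of this length.

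A larger share of the guidance genes than of all autosomal genes carried H3K4me2 or H3K27me3 at a gene end, and most of the marked genes kept their marks in Asxl1-/- cells. A gene counted as marked when an island lay within 1 kb of either end, because the gene table gives no strand. H3K4me2 was at 52 of the 59 genes in Asxl1-/- cells (88.1%, against 65.7% of all autosomal genes) and at 51 in WT cells (86.4% against 64.7%). H3K4me3 was at 44 genes in Asxl1-/- cells (74.6% against 59.6%) and at 42 in WT cells (71.2% against 59.8%). The exact 95% interval of the H3K4me3 share in WT cells, 57.9 to 82.2%, holds the share of all genes. H3K27me3 was at 29 genes in Asxl1-/- cells (49.2% against 24.4%) and at 35 in WT cells (59.3% against 27.4%). For H3K27me3 the interval, which covers counting error only, was 35.9 to 62.5% in Asxl1-/- cells and 45.7 to 71.9% in WT cells. ASXL1 was at 34 genes (57.6%, interval 44.1 to 70.4%, against 51.4% of all genes). The guidance genes are also long, with a median of 40.5 kb against 17.5 kb for all autosomal genes, and 21 of them (35.6%, against 33.2% of all genes) have an end of another gene within 2 kb of their own, so that some islands cannot be assigned to 1 gene.

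**Figure D1:**
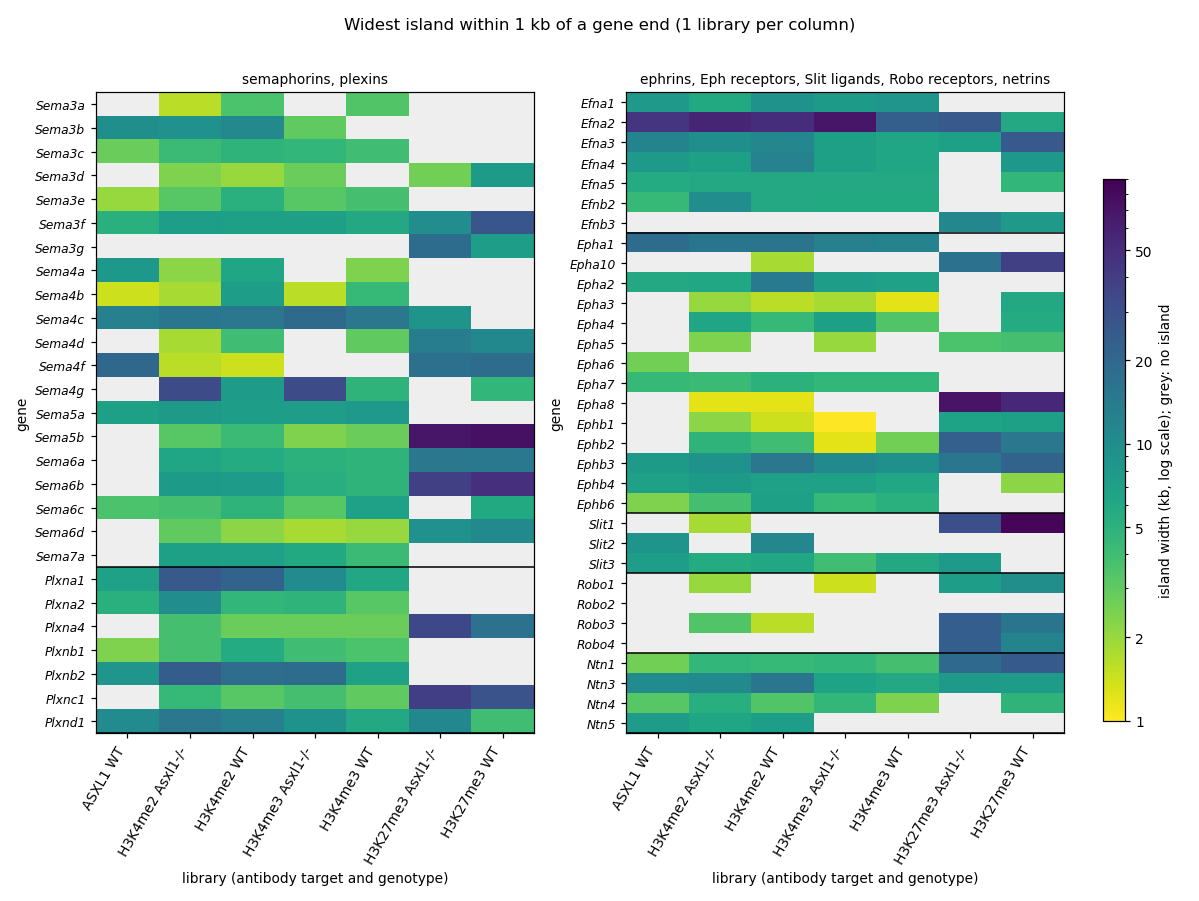
Width in kb (log colour scale) of the widest island within 1 kb of a gene end, for each of the 59 guidance genes (rows) in each of the 7 libraries (columns, 1 library each). Grey cells have no island; Robo2 has none in any library, and the widest H3K27me3 islands are those of Slit1, Sema5b and Epha8.

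A mark is called lost where WT cells alone had it and gained where Asxl1-/- cells alone had it. H3K4me2 was kept in both genotypes at 49 guidance genes (83.1%, against 62.8% of all genes), lost at 2 (3.39% against 1.93%) and gained at 3 (5.08% against 2.99%). H3K4me3 was kept at 39 (66.1% against 57.3%), lost at 3 (5.08% against 2.51%) and gained at 5 (8.47% against 2.26%). H3K27me3 was kept at 27 (45.8% against 20.4%), lost at 8 (13.6% against 7.08%) and gained at 2 (3.39% against 4.06%). The balance of losses and gains turned round when islands narrower than the median of their list were left out: H3K27me3 was then lost at 2 genes and gained at 5, and H3K4me3 was lost at 6 and gained at 2. These shares depend on how many genes carried the mark to begin with. Of the 35 guidance genes with H3K27me3 in WT cells, 22.9% (10.4 to 40.1%) lost it, near the 25.8% of all marked genes, and 2 of the 24 without it gained it (8.33% against 5.6%). Of the 17 without H3K4me3 in WT cells, 29.4% (10.3 to 56.0%) gained it, against 5.63% of all unmarked genes, while 3 of the 42 with it lost it (7.14% against 4.19%). For H3K4me2, 3 of the 8 genes without it gained it (37.5%, 8.52 to 75.5%, against 8.46%) and 2 of the 51 with it lost it (3.92% against 2.98%). These counts are of outer gene ends. Robo1, Robo2 and Slit2 count as without H3K4me3, although WT islands of 3.0, 5.8 and 7.2 kb lay at RefSeq starts inside them. The H3K4me2 gains of Epha5 and Slit1 lay near an end of another gene, and that of Robo1 at its outer end. At RefSeq starts, known for 51 genes, H3K4me2 was gained at 1.49% of starts, against 2.71% of all starts. H3K4me3 was gained at 4.48%, against 1.76%. In total 21 guidance genes (35.6%, against 18.3% of all genes) lost or gained at least 1 mark, and 38 did neither. No gene kept a mark at different ends in the genotypes. Every lost or gained island lay where the other genotype had no island of that mark at all, apart from the H3K4me2 island of Slit2.

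**Figure D2:**
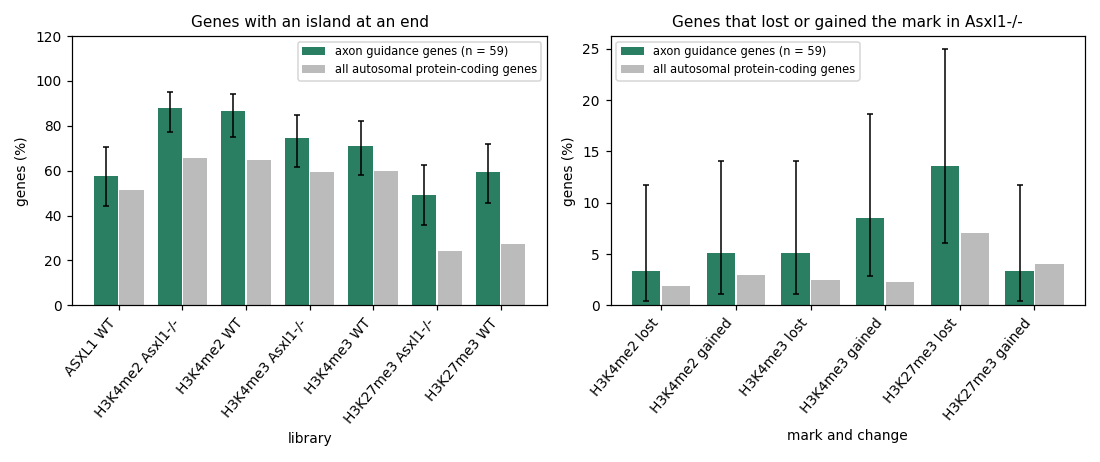
Left, the share of genes (%) with an island within 1 kb of an end in each library; right, the share that lost or gained each mark in Asxl1-/- cells. Green bars are the 59 guidance genes with exact 95% intervals for counting error, and grey bars are all autosomal protein-coding genes; the green H3K27me3 bars stand at 49.2% in Asxl1-/- cells and 59.3% in WT cells, against grey bars of 24.4% and 27.4%.

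Among the class 3 semaphorins, which are secreted, Sema3d and Sema3b gained H3K4me3 and Sema3a lost it at an end. Sema3d had H3K4me2, H3K4me3 and H3K27me3 islands of 2.4, 2.8 and 2.6 kb in Asxl1-/- cells, against 2.0 kb, none and 7.8 kb in WT cells. It thus had all 3 marks at its start in Asxl1-/- cells and lacked H3K4me3 there in WT cells, and it had no ASXL1 island. Sema3b had an H3K4me3 island of 3.0 kb in Asxl1-/- cells and none in WT cells, beside H3K4me2 islands of 9.2 kb in Asxl1-/- cells and 10.8 kb in WT cells. It had an ASXL1 island of 9.6 kb and no H3K27me3 in Asxl1-/- or WT cells. Sema3b is on chromosome 9, which was covered 1.26 times as much in Asxl1-/- as in WT cells in H3K4me3.

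At Sema3a the outer gene start had no H3K4me3 island in Asxl1-/- cells, against 3.4 kb in WT cells. The gene table's outer start is not the only start of Sema3a: inside the gene the widest H3K4me3 island was 5.2 kb in Asxl1-/- cells and 8.2 kb in WT cells. The WT island covered the internal RefSeq start, and the Asxl1-/- island lay more than 1 kb from it. Over the whole gene body H3K4me3 covered 5.2 kb in Asxl1-/- cells and 12.4 kb in WT cells, and H3K4me2 covered 13.2 kb in Asxl1-/- cells and 23.8 kb in WT cells. Sema3a therefore kept H3K4 methylation inside the gene with less length covered, and it had no H3K27me3 in Asxl1-/- or WT cells. Sema3c and Sema3e, also on chromosome 5, kept both H3K4 marks, with H3K4me3 islands of 4.6 and 3.2 kb in Asxl1-/- cells and 4.0 and 3.8 kb in WT cells. Sema3f kept all marks, with an H3K27me3 island of 10.0 kb in Asxl1-/- cells and 27.2 kb in WT cells, and over its body H3K27me3 covered 20.4 kb in Asxl1-/- cells and 6.0 kb in WT cells. Sema3g had H3K27me3 as its sole mark, in an island of 18.2 kb in Asxl1-/- cells and 7.4 kb in WT cells. The H3K27me3 ratio was 1.53 on chromosome 9, with Sema3f, and 2.04 on chromosome 14, with Sema3g.

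The class 4 to 7 semaphorins are mostly membrane-bound, and among the 13 of them 2 lost H3K4me3, 2 lost H3K27me3 and 1 gained H3K27me3. Sema4d, the semaphorin known to restrain osteoblasts, had no H3K4me3 island at its outer start in Asxl1-/- cells, against 3.0 kb in WT cells. H3K27me3 at that end was 13.4 kb wide in Asxl1-/- cells and 11.0 kb wide in WT cells, and over the gene body it covered 45.7 kb in Asxl1-/- cells and 19.1 kb in WT cells. H3K4me2 at the end was 1.8 kb wide in Asxl1-/- cells and 4.0 kb wide in WT cells. Thus in Sema4d both H3K4 marks were narrower or missing and H3K27me3 was longer in Asxl1-/- cells. Chromosome 13, where it lies, had ratios of 0.793 for H3K4me3 and 0.491 for H3K27me3. Sema4a lost an H3K4me3 island of 2.4 kb, which lay at the end opposite its RefSeq starts, on chromosome 3 with its ratio of 0.70, and had H3K27me3 over 0.0 kb of its body in Asxl1-/- cells and 10.6 kb in WT cells.

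Sema4c gained an H3K27me3 island of 8.8 kb in Asxl1-/- cells beside H3K4me3 islands of 19.0 kb in Asxl1-/- cells and 15.0 kb in WT cells. That island also reaches an end of Fam178b, and the chromosome 1 ratio for H3K27me3 was 1.34. Sema4g lost an H3K27me3 island of 4.6 kb at its start. H3K4me3 at that start was 4.6 kb wide in Asxl1-/- cells and 4.8 kb in WT cells. At the downstream end, which neighbours another gene, Asxl1-/- cells had an H3K4me3 island of 32.0 kb and WT cells had none. Sema6c lost an H3K27me3 island of 5.8 kb and kept H3K4me3, at 3.2 kb in Asxl1-/- cells and 6.8 kb in WT cells, again on chromosome 3, whose H3K27me3 ratio was 0.222. Sema5b, Sema6a, Sema6b and Sema6d kept all 3 marks. The H3K27me3 island of Sema5b was 68.8 kb wide in Asxl1-/- cells and 73.0 kb in WT cells, and that of Sema6b 38.4 kb in Asxl1-/- cells and 49.2 kb in WT cells. Sema6a had more H3K27me3 over its body, 40.6 kb in Asxl1-/- cells and 12.8 kb in WT cells, on chromosome 18, whose ratio was 1.98. Sema6d had H3K27me3 islands of 9.2 kb in Asxl1-/- cells and 10.6 kb in WT cells. Sema4b, Sema5a and Sema7a kept both H3K4 marks and had no H3K27me3 at an end.

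No plexin lost or gained a mark at an end: all 7 kept H3K4me2 and H3K4me3, and Plxna4, Plxnc1 and Plxnd1 also kept H3K27me3. The difference at plexins lay inside the genes, at Plxnb1 including its RefSeq start. Plxna4, a receptor for class 3 and class 6 semaphorins, is 443.6 kb long. H3K27me3 covered 298.0 kb of it in Asxl1-/- cells, in 19 islands within the gene or 1 kb of its ends, against 7.0 kb in 1 island in WT cells. That is 67.2% of the gene in Asxl1-/- cells and 1.58% in WT cells, the most positive difference among 20665 genes. At its upper end the H3K4me3 island was 2.8 kb in Asxl1-/- cells and 2.8 kb in WT cells. Thus the H3K27me3 over the body differed, while H3K4me3 at the end had the same width. In the 1 Mb on either side of Plxna4, H3K27me3 covered 348.4 kb in Asxl1-/- cells and 192.4 kb in WT cells, and the chromosome 6 ratio was 0.996.

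Plxnc1, the receptor of Sema7a, had H3K27me3 over 111.6 kb in Asxl1-/- cells and 89.2 kb in WT cells, with end islands of 38.8 kb in Asxl1-/- cells and 28.6 kb in WT cells. It also had more H3K4me2, at 11.0 kb of the body in Asxl1-/- cells and 3.0 kb in WT cells, and more H3K4me3, at 5.0 kb in Asxl1-/- cells and 1.6 kb in WT cells. All 3 marks thus covered more of Plxnc1 in Asxl1-/- cells, and chromosome 10 was high in all 3, at 1.35, 1.45 and 2.09. Plxnb1, the receptor of Sema4d, had H3K27me3 over 15.0 kb inside the gene in Asxl1-/- cells and none in WT cells. This includes an island of 2.4 kb over its RefSeq start, which lies more than 1 kb inside the gene table's outer end. H3K4me3 at that start was 4.0 kb in Asxl1-/- cells and 3.6 kb in WT cells. The H3K27me3 ratio of its chromosome 9 was 1.53. Plxnd1 kept H3K27me3 at 11.0 kb in Asxl1-/- cells and 4.0 kb in WT cells. Plxna1, Plxna2 and Plxnb2 had no H3K27me3 in Asxl1-/- or WT cells. Plxnb2 had the widest H3K4me3 island of the plexins in Asxl1-/- cells, 18.2 kb, against 6.8 kb in WT cells. Over its body H3K4me3 covered nearly the same length, 15.0 kb in Asxl1-/- cells and 14.2 kb in WT cells. Separate WT islands of 4.6 and 6.8 kb lay at its RefSeq starts.

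**Figure D3:**
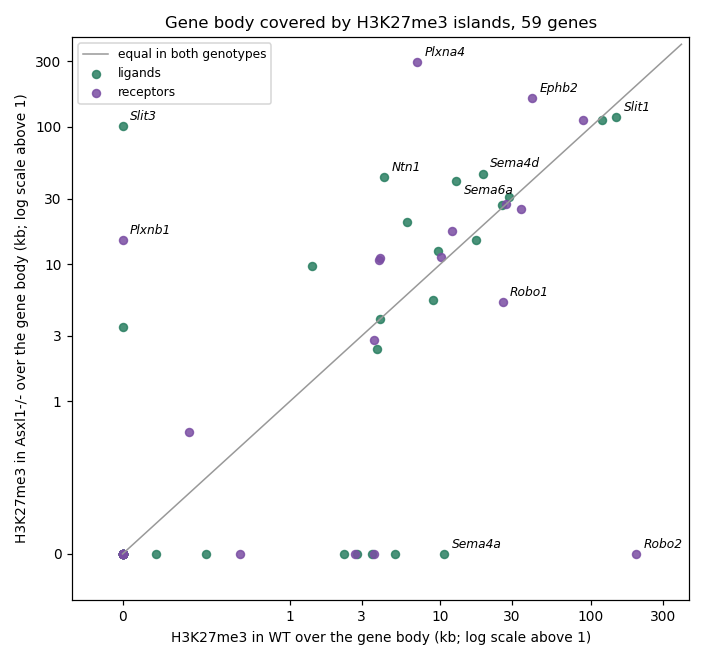
H3K27me3 over the gene body of each guidance gene, in kb covered in Asxl1-/- cells (vertical) against WT cells (horizontal), on scales that are logarithmic above 1 kb; green points are ligands, purple points are receptors, and the line marks equal values. Plxna4 lies far above the line at 298.0 kb in Asxl1-/- cells against 7.0 kb in WT cells, and Robo2 far below it at 0.0 against 200.0 kb.

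All 5 ephrin-A genes, whose products are anchored in the membrane by a lipid, kept H3K4me2 and H3K4me3, and 2 of them lost H3K27me3. Efna5 had no H3K27me3 at its start in Asxl1-/- cells, against 4.6 kb in WT cells, and its H3K4me3 island was 6.0 kb in Asxl1-/- cells and 6.0 kb in WT cells. Efna4 lost an H3K27me3 island of 8.2 kb that lay at its downstream end, on chromosome 3. Efna3, nearby on that chromosome, kept H3K27me3 at 7.0 kb in Asxl1-/- cells, against 25.4 kb in WT cells, and Efna1 had none. Efna2 had the widest islands of the family: H3K4me3 of 68.4 kb in Asxl1-/- cells and 23.2 kb in WT cells, H3K27me3 of 25.6 kb in Asxl1-/- cells and 6.0 kb in WT cells, and an ASXL1 island of 46.0 kb in WT cells. These are widths of whole islands that run beyond this gene of 10.5 kb, on chromosome 10 with its H3K27me3 ratio of 2.09. The WT H3K27me3 island of Efna2 lay at its downstream end alone. At its start H3K27me3 was 5.0 kb wide in Asxl1-/- cells and absent in WT cells. Efnb2, the transmembrane ligand of EphB4, kept H3K4me3 at 5.8 kb in Asxl1-/- cells and 5.8 kb in WT cells and had no H3K27me3. Efnb3 had H3K27me3 as its sole mark, at 11.2 kb in Asxl1-/- cells and 8.0 kb in WT cells.

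Eph receptors supplied 3 of the 8 losses of H3K27me3 and 2 of the 5 gains of H3K4me3, and in each of these 5 genes the island lay at the RefSeq start. Epha3 had no H3K27me3 island in Asxl1-/- cells, against 6.0 kb in WT cells, with H3K4me3 islands of 1.8 kb in Asxl1-/- cells and 1.2 kb in WT cells. The nearest H3K27me3 island of Asxl1-/- cells was 5202.2 kb away. Epha4 had none in Asxl1-/- cells, against 5.6 kb in WT cells, with H3K4me3 islands of 7.0 kb in Asxl1-/- cells and 3.4 kb in WT cells. Over the body of Epha4, H3K4me3 covered 4.3 kb in Asxl1-/- cells and 1.7 kb in WT cells and H3K4me2 covered 7.7 kb in Asxl1-/- cells and 1.7 kb in WT cells, so this gene had no H3K27me3 and more H3K4 methylation in Asxl1-/- cells. Chromosome 1 had an H3K27me3 ratio of 1.34 and chromosome 16, with Epha3, a ratio of 0.731. Ephb4, the receptor of ephrin-B2, lost a narrow H3K27me3 island of 2.2 kb and kept H3K4me3 at 6.8 kb in Asxl1-/- cells and 6.2 kb in WT cells.

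Epha5 had H3K4me2, H3K4me3 and H3K27me3 islands of 2.4, 2.0 and 3.6 kb in Asxl1-/- cells, while WT cells had H3K27me3 alone, at 3.8 kb. It gained both H3K4 marks, and the nearest WT island of H3K4me3 was 1644.8 kb away; the end of Gm42163 lies within 2 kb. Ephb1 gained an H3K4me3 island of 1.0 kb, with H3K4me2 islands of 2.2 kb in Asxl1-/- cells and 1.4 kb in WT cells and H3K27me3 islands of 6.6 kb in Asxl1-/- cells and 7.0 kb in WT cells. The islands that these 2 genes gained are narrow, and the promoters of both, printed above, had no ASXL1 island. Epha10 lost an H3K4me2 island of 1.8 kb next to Maneal and kept H3K27me3 at 16.8 kb in Asxl1-/- cells and 38.6 kb in WT cells.

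Ephb2 kept all 3 marks at its start and had more H3K27me3 over its body. H3K27me3 covered 162.2 kb of its 188.8 kb in Asxl1-/- cells, in 13 islands, against 40.8 kb in 5 islands in WT cells, or 85.9% of the gene in Asxl1-/- cells and 21.6% in WT cells. This was the rise of rank 23 among all genes. In the 1 Mb on either side H3K27me3 covered 507.3 kb in Asxl1-/- cells and 432.9 kb in WT cells, and the ratio over all of chromosome 4 was 0.619. Ephb3 also kept all 3 marks, with H3K27me3 islands of 15.4 kb in Asxl1-/- cells and 21.6 kb in WT cells. Epha8 was covered over its whole length by H3K27me3, in an island of 71.0 kb in Asxl1-/- cells and 54.8 kb in WT cells. Epha1, Epha2, Epha7 and Ephb6 kept both H3K4 marks and had no H3K27me3 island. Epha6 had no island of a histone mark at its ends.

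The 3 Slit genes, whose large secreted products repel axons through Robo receptors, each differed in another way. Slit3 gained an H3K27me3 island of 8.0 kb at its start and had 102.1 kb of H3K27me3 over its 587.1 kb in Asxl1-/- cells, against 0.0 kb in WT cells. The nearest WT island of that mark to the gained one was 183.0 kb away, and a WT island near the far end of the gene lies beyond the gene. At the start H3K4me3 was 4.0 kb wide in Asxl1-/- cells and 6.0 kb in WT cells, H3K4me2 was 5.6 kb in Asxl1-/- cells and 6.2 kb in WT cells, and ASXL1 in WT cells was 7.4 kb. Slit3 thus had H3K4me3 alone in WT cells and both marks in Asxl1-/- cells. Coverage on chromosome 11 was 1.5 times that of WT cells, and in the 1 Mb on either side it was 219.5 kb in Asxl1-/- cells and 78.2 kb in WT cells.

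Slit1 had H3K27me3 over 118.1 kb in Asxl1-/- cells and 147.9 kb in WT cells, or 79.0% of the gene in Asxl1-/- cells and 98.9% in WT cells. H3K4me2 covered 20.0 kb of its body in Asxl1-/- cells and 1.6 kb in WT cells, and a gained H3K4me2 island of 1.8 kb lay at the end shared with Lcor. Slit2 had no H3K27me3 in Asxl1-/- or WT cells. Its loss of H3K4me2 at the outer start is one of position: the Asxl1-/- island of 6.2 kb covered 55.4% of the WT island of 11.2 kb, which began before the gene, and H3K4me3 just inside, at the RefSeq start, was 6.8 kb in Asxl1-/- cells and 7.2 kb in WT cells.

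**Figure D4:**
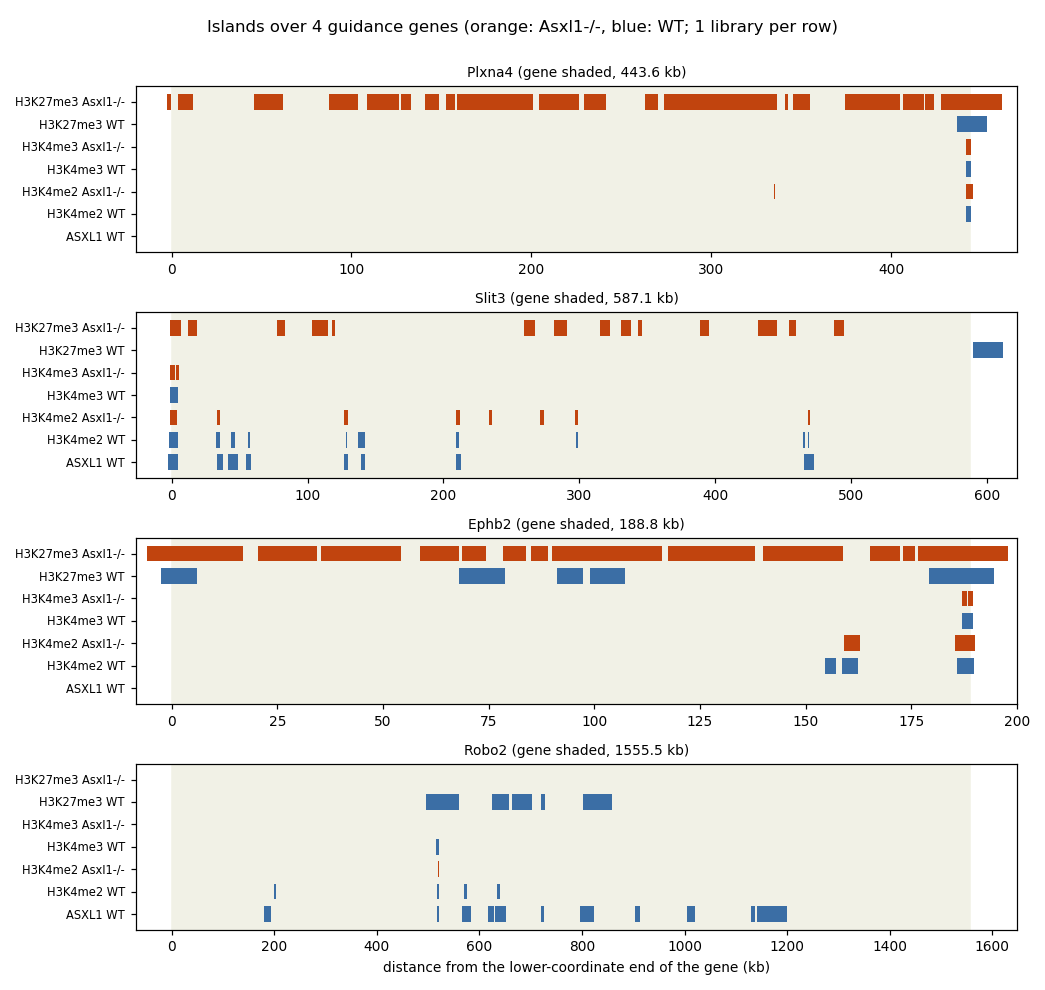
Islands over Plxna4, Slit3, Ephb2 and Robo2, by distance in kb from the lower-coordinate end of the gene, with 1 row per library (orange, Asxl1-/-; blue, WT) and the gene shaded. H3K27me3 of Asxl1-/- cells runs through Plxna4 and Ephb2 and in pieces through Slit3, while the H3K27me3 and ASXL1 islands inside Robo2 are those of WT cells.

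Of the 4 Robo receptors, 2 had H3K4me2 at an end in Asxl1-/- cells and 1 in WT cells, and 1 had H3K4me3 in Asxl1-/- cells and 0 in WT cells. The longest differences lay inside the genes. Robo1, a receptor of Slit proteins that is 1020.0 kb long, gained H3K4me2 of 2.0 kb and H3K4me3 of 1.4 kb at its outer start, where H3K27me3 was 7.2 kb wide in Asxl1-/- cells and 9.8 kb in WT cells. At its internal RefSeq start H3K4me3 was 3.0 kb in Asxl1-/- cells and 3.0 kb in WT cells, and H3K27me3 was absent in Asxl1-/- cells and 17.2 kb wide in WT cells. Over the body H3K27me3 covered 5.3 kb in Asxl1-/- cells and 25.9 kb in WT cells.

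Robo2 is the longest of the 59 genes, at 1555.5 kb, and had no island of any library at its outer ends. Inside it, H3K27me3 covered 0.0 kb in Asxl1-/- cells and 200.0 kb in WT cells, in 7 islands, which is the fall of rank 2 among 20665 genes. At the internal RefSeq start whose promoter is printed above, H3K4me3 was absent in Asxl1-/- cells and 5.8 kb wide in WT cells. H3K4me2 there was 2.6 kb in Asxl1-/- cells and 5.2 kb in WT cells, and ASXL1 in WT cells was 5.0 kb. That start therefore had both marks and ASXL1 in WT cells, and H3K4me2 alone among the marks in Asxl1-/- cells. ASXL1 covered 197.4 kb of Robo2 in 11 islands, which is rank 2 by length among all genes. In the 1 Mb on either side H3K27me3 covered 0.0 kb in Asxl1-/- cells and 2.6 kb in WT cells, and the chromosome 16 ratio was 0.731. Robo3 and Robo4, which adjoin each other on chromosome 9, shared 1 H3K27me3 island of 23.6 kb in Asxl1-/- cells. It covered the start of Robo3, where the WT island was 15.6 kb, and at the start of Robo4 a second island was 16.8 kb in Asxl1-/- cells and 11.8 kb in WT cells. The chromosome 9 ratio was 1.53.

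Of the 4 netrins, laminin-related secreted cues, Ntn4 lost H3K27me3. Its island was absent in Asxl1-/- cells and 4.8 kb wide in WT cells, on chromosome 10 with its ratio of 2.09. H3K4me3 at that start was 4.6 kb in Asxl1-/- cells and 2.4 kb in WT cells. Ntn1 kept all marks at its end, and over its body H3K27me3 covered 43.0 kb in Asxl1-/- cells and 4.2 kb in WT cells, on chromosome 11 with its ratio of 1.5. Ntn3 kept all 3 marks and Ntn5 had H3K4me2 alone, at 6.4 kb in Asxl1-/- cells and 7.2 kb in WT cells.

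Summed over the 59 gene bodies, H3K27me3 covered 1290.9 kb in Asxl1-/- cells and 898.8 kb in WT cells, a ratio of 1.44, against 1.04 for all autosomal genes. This sum rests on few genes: the ratio was 1.11 without Plxna4 (992.9 kb in Asxl1-/- cells and 891.8 kb in WT cells), 1.85 without Robo2 (1290.9 kb in Asxl1-/- cells and 698.8 kb in WT cells) and 1.44 without both. These alternatives were chosen after the values were seen. For the 33 genes on the 10 autosomes whose H3K4me2 ratio lay within 0.2 (log2) of the autosomal median, the ratio was 1.05. These 33 genes include both Plxna4 and Robo2, and their ratio without those genes was not computed. As many genes had more H3K27me3 in Asxl1-/- cells as had less, 19 each, and 21 had equal lengths. At least 10 kb more was found at 9 genes, Plxna4, Ephb2, Slit3, Ntn1, Sema6a, Sema4d, Plxnc1, Plxnb1 and Sema3f (15.3%, against 3.45% of all genes), and at least 10 kb less at 4, Robo2, Slit1, Robo1 and Sema4a (6.78% against 3.2%). Since long genes can change by more, the same counts were taken among genes of 100 kb or longer. There 7 of 27 had more (25.9%, interval 11.1 to 46.3%, against 13.9%) and 3 of 27 had less (11.1%, interval 2.35 to 29.2%, against 12.0%). Both intervals hold the share of all such genes. H3K4me2 covered 451.2 kb in Asxl1-/- cells and 465.5 kb in WT cells, and H3K4me3 covered 214.8 kb in Asxl1-/- cells and 226.1 kb in WT cells. The largest H3K4me2 differences, beside those given above, were at Sema6a (16.2 kb in Asxl1-/- cells and 7.4 kb in WT cells) and Plxna2 (18.6 kb in Asxl1-/- cells and 13.8 kb in WT cells), which had more in Asxl1-/- cells. Less was found at Robo2 (2.6 kb in Asxl1-/- cells and 21.4 kb in WT cells), Slit2 (6.2 kb in Asxl1-/- cells and 16.1 kb in WT cells), Sema4d (1.7 kb in Asxl1-/- cells and 10.5 kb in WT cells) and Sema4a (4.6 kb in Asxl1-/- cells and 12.0 kb in WT cells). H3K4me3 likewise covered less of Robo2 (0.0 kb in Asxl1-/- cells and 5.8 kb in WT cells) and more of Sema6a (7.0 kb in Asxl1-/- cells and 4.8 kb in WT cells).

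H3K4me3 and H3K27me3 lay at the same end of 20 guidance genes in Asxl1-/- cells (33.9%, against 9.71% of all genes) and of 22 in WT cells (37.3% against 12.4%). The numbers were near each other, but 14 genes had both marks in the 2 genotypes: Efna2, Efna3, Ephb2, Ephb3, Ntn1, Ntn3, Plxna4, Plxnc1, Plxnd1, Sema3f, Sema5b, Sema6a, Sema6b and Sema6d. Efna2 is among them by its downstream end, while at its start both marks lay in Asxl1-/- cells only. A further 6 had both in Asxl1-/- cells only, namely Epha5, Ephb1, Robo1 and Sema3d, which gained H3K4me3, and Sema4c and Slit3, which gained H3K27me3. Robo1 is among them by its outer end, while at its internal RefSeq start both marks lay in WT cells only. A further 8 had both in WT cells only, namely Efna5, Epha3, Epha4, Ephb4, Ntn4, Sema4g and Sema6c, which lost H3K27me3, and Sema4d, which lost H3K4me3. The 14 are 63.6% of the genes with both marks in WT cells, against 58.3% over all genes, and 70.0% of those with both in Asxl1-/- cells, against 74.5%.

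All 8 losses of H3K27me3 were at genes that had H3K4me3 at an end in WT cells. Of the 23 genes with both marks at an end, the same or not, 34.8% (16.4 to 57.3%) lost it, against 31.2% of all genes with both marks, and of 12 genes with H3K27me3 alone 0 lost it (0.0 to 26.5%), against 20.0% of all such genes. Each of the 8 kept its H3K4me3. Conversely, 4 of the 12 genes with H3K27me3 alone in WT cells gained H3K4me3 (33.3%, 9.92 to 65.1%), against 9.65% of all such genes. Robo1 is among these 4 by its outer end, while its internal RefSeq start had H3K4me3 in both genotypes. Of the 9 genes that had H3K4me2 without H3K4me3 in WT cells, 3 gained H3K4me3 (33.3%, 7.49 to 70.1%), near the 28.0% of all such genes.

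For islands kept in both genotypes, the median ratio of Asxl1-/- over WT widths was 1.03 for H3K4me2 at 49 genes (0.958 over all genes), 1.1 for H3K4me3 at 39 genes (1.12 over all genes) and 0.947 for H3K27me3 at 27 genes (0.912 over all genes). H3K4me3 was wider in Asxl1-/- cells at 25 guidance genes (64.1%, near the 62.8% of all genes that kept it), narrower at 10 and equal at 4.

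The share of guidance genes with ASXL1 in WT cells differed with the marks that they carried in WT cells. ASXL1 lay at an end of 17 of the 19 genes with H3K4me3 alone (89.5%, against 92.5% of all such genes), 12 of the 23 with both marks (52.2% against 53.0%), 1 of the 12 with H3K27me3 alone (8.33% against 3.47%) and 4 of the 5 with neither (80.0%, interval 28.4 to 99.5%, against 4.31%). The 4 were Sema3b, Slit2, Ntn5 and Epha6, with ASXL1 islands of 9.6, 8.8, 7.6 and 2.6 kb, and all but Epha6 also had H3K4me2 there. Slit2 is among them only because its WT H3K4me3 island, which lies within the ASXL1 island, begins 1.3 kb inside the gene. The 1 with H3K27me3 alone was Sema4f, where an ASXL1 island of 19.6 kb lay at the end opposite the WT H3K27me3. By family ASXL1 was at 10 of 20 semaphorins, 5 of 7 plexins, 6 of 7 ephrins, 7 of 14 Eph receptors, 2 of 3 Slit genes, 0 of 4 Robo genes and 4 of 4 netrins, against 51.4% of all genes. The Robo count is of outer ends, and Robo2 had an ASXL1 island of 5.0 kb at an internal RefSeq start. The 21 genes that lost or gained a mark include both kinds: the losses of H3K27me3 at Efna5, Ephb4, Ntn4 and Sema6c were at ends with ASXL1 islands of 5.6, 6.8, 3.2 and 3.6 kb, and those at Epha3, Epha4 and Sema4g were at genes without one. Efna4 had ASXL1 at its other end.

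Since the gene table's outer ends miss internal starts, the marks were also read within 1 kb of 67 RefSeq starts, which the promoter table gives for 51 of the 59 genes. Efnb3, Ntn1, Plxna1, Plxna4, Sema3b, Sema3f, Sema6a and Slit1 were not matched. H3K27me3 was lost at 12 starts of 10 genes (17.9% of starts, against 6.02% of all autosomal starts) and gained at 8 starts of 6 genes, Efna2, Plxnb1, Sema3g, Sema4c, Sema4d and Slit3 (11.9% against 3.6%). These shares again depend on how many starts carried the mark. In WT cells 21 of the 67 starts had H3K27me3 with H3K4me3 and 10 had it alone, against 2143 and 2346 of 20085 autosomal starts. The share lost among starts with the mark was not computed. At Sema4a and Sema6c (losses) and at Sema4c and Sema4d (gains), more than 1 start counts for the same island. Robo1, Robo2 and Sema4a joined the genes with a loss, and Efna4, whose lost island was at its downstream end, was no longer among them. H3K4me3 was gained at 3 starts, those of Epha5, Ephb1 and Sema3d (4.48% against 1.76%), and lost at 4, of Robo2, Sema3a, Sema6b and Sema6c (5.97% against 2.49%). Sema6b and Sema6c kept H3K4me3 at another start. At Sema3a an Asxl1-/- island of 5.2 kb lay just outside the 1 kb window. H3K4me2 was gained at 1 start, of Epha5 (1.49% against 2.71%), and lost at 5 starts of Epha10, Sema4a, Sema4d and Sema6c (7.46% against 1.88%). Sema4a and Sema6c kept H3K4me2 at another start, and the lost starts of Sema4a lay under the same WT island of 4.2 kb.

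The CG content of the promoters differed with the marks of WT cells. The median number of CG dinucleotides in 300 bases was 26 at 25 starts with H3K4me3 alone, 23 at 21 with both marks, 14 at 10 with H3K27me3 alone and 5 at 11 with neither, and 19 over all 67. Over all autosomal starts the medians in these states were 22, 22, 6 and 3. ASXL1 lay within 1 kb of 23 of the 25 starts with H3K4me3 alone (92.3% of all such starts), 10 of the 21 with both marks (43.7% of all such starts), 0 of the 10 with H3K27me3 alone (1.75%) and 2 of the 11 with neither (3.3%). The groups overlap widely, and the highest count, 56 at Epha8, is at a start with H3K27me3 alone. The GC box GGGCGG, on either strand, was in 71.6% of the 67 promoters and in 47.0% of all autosomal promoters of this length. Starts of 1 gene share sequence and islands and are not independent.

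**Figure D5:**
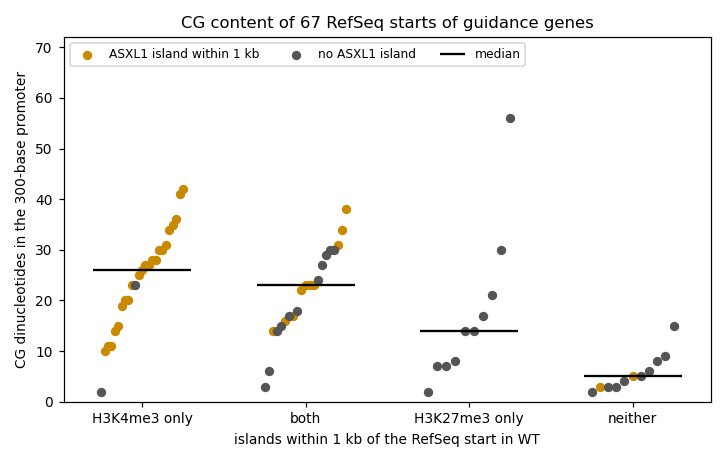
CG dinucleotides in the 300-base promoter of each of 67 RefSeq starts, grouped by the islands within 1 kb in WT cells; orange points have an ASXL1 island within 1 kb, grey points have none, and bars are medians. Starts with H3K4me3 alone have a median of 26 and 23 of 25 carry ASXL1, while those with neither mark have a median of 5.

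Outside the ligand and receptor families, 69 autosomal genes of the same pathways were read, among them neuropilins, DCC and UNC5 receptors, further cues such as the repulsive guidance molecules, and intracellular mediators. At their ends H3K4me2 was kept at 61 genes, lost at 0 and gained at 2 (over all genes 62.8, 1.93 and 2.99%). H3K4me3 was kept at 57, lost at 2 and gained at 2 (over all genes 57.3, 2.51 and 2.26%). H3K27me3 was kept at 18, lost at 7 and gained at 1 (over all genes 20.4, 7.08 and 4.06%). Of all genes with H3K27me3 in WT cells, 25.8% lost it. H3K4me3 and H3K27me3 lay at the same end of 12 in Asxl1-/- cells and 17 in WT cells (over all genes 9.71 and 12.4%). ASXL1 was at 49 (over all genes 51.4%). H3K27me3 was lost at the netrin receptor Unc5c (6.8 kb in WT cells), Ntng1 (8.2 kb), Rgma (8.6 kb), Rgmb (2.8 kb), Itga1 (7.2 kb), Vav3 (3.8 kb) and Srgap1 (7.2 kb), which encodes a GTPase-activating protein downstream of Robo. Of these, Unc5c, Ntng1 and Vav3 are on chromosome 3, whose H3K27me3 ratio was 0.222. The ratio was 0.491 for the chromosome of Itga1, 0.736 for that of Rgma, 0.75 for that of Rgmb and 2.09 for that of Srgap1. The gain was at Flrt2 (6.8 kb in Asxl1-/- cells), whose product binds UNC5 receptors, on chromosome 12 with its ratio of 1.87. H3K4me3 was lost at Enah (2.0 kb in WT cells), an actin regulator, and at Gipc1 (8.0 kb), and gained at Lingo1 (1.2 kb in Asxl1-/- cells) and Dpysl2 (4.4 kb), a mediator of semaphorin signals.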

How the data were processed

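The submitters' processing notes name BWA, SICER 1.1 and the mm10 build. For the calling parameters, the sources used here give nothing. The authors deposited, for 7 of 8 samples, a list with the chromosome, start and end of each island. The lists hold no count, score or p-value, so depth is unknown, and all positions lie on a 200 bp grid. Starts were converted to count from 1. An overlap of 1 bp or more counted, at 1 kb around gene ends and over gene bodies of the RefSeq table of GRCm38.p6. The tools were pandas 2.3.3, numpy 2.4.6 and scipy 1.17.1 under Python 3.11.15. A width is that of the whole island. Shares carry 95% exact Clopper-Pearson intervals for counting error only. With 1 library per group no test was made. The step that calls losses was tested on simulated data. Genes named are all those that lost or gained a mark, the widest per family, the 5 with the widest ASXL1 island, and the 5 largest body differences per mark and direction; others are named to account for every member. Members, lists and rules were chosen with earlier results of these data known. The RefSeq-start view, the 10 kb difference and the sums without Plxna4 or Robo2 were chosen after seeing these values. Alternatives covered the window, overlap, gene end, island width, list length, chromosomes and neighbouring genes.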

Additional observations from a re-analysis of the deposited data

How the results depend on the processing

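Of the 202 values recomputed under alternatives, 188 stayed within the counting interval of a share, the quartiles of a width ratio or 1.5 times a ratio of lengths, and 14 did not. These bounds are wide, so staying within them does not show that a result held. The H3K27me3 ratio over gene bodies, 1.44 as reported, counted as staying at 1.05 on autosomes near the median. It also did at 1.11 without Plxna4 and at 1.85 without Robo2. Gains of H3K4me2 counted as staying at 6 genes with a window of 0 bp, against 3. With only the islands of each list from its median width upward, ASXL1 was at 39.0% of the guidance genes, H3K4me2 at 67.8% in Asxl1-/- cells and 71.2% in WT cells, H3K4me3 at 47.5% in Asxl1-/- cells and 54.2% in WT cells, and H3K27me3 at 37.3% in Asxl1-/- cells and 32.2% in WT cells, so that its order turned round. Among those islands H3K4me2 was kept at 62.7%, H3K4me3 at 44.1% and H3K27me3 at 28.8%, H3K27me3 was lost at 3.39% and gained at 8.47%, H3K4me3 was lost at 10.2% and gained at 3.39%, and both marks shared an end at 10.2% in Asxl1-/- cells and 8.47% in WT cells; fewer islands enter by construction. At RefSeq starts, added after seeing the data, H3K27me3 was gained at 11.8% of 51 genes. Counting gene bodies with the ends, also added, H3K4me2 was lost at 0.0%. Over 10 alternatives, which count 33 to 59 genes, H3K27me3 was lost at 2 to 10 genes (8 as reported) and gained at 1 to 6 (2), H3K4me3 was lost at 1 to 6 (3) and gained at 2 to 6 (5), and H3K4me2 was lost at 0 to 5 (2) and gained at 1 to 6 (3). Alternatives with lists of equal length or with chromosomes near the median could not be made for ASXL1, which has 1 library. No paired analysis was possible because each group is 1 library, and no replicate could be left out. Without counts, an island missing from a list may differ little in signal from one that was called, and a call cannot be told apart from a difference in depth.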
